A study of Neurospora crassa with 10 samples.

Results

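H3K9me3 domains shorter than 15 kb made up most, by number, of the listed H3K9me3 domains of wild-type Neurospora crassa. They were chosen by length alone: every non-blank row of the authors' domain list whose length, with both end positions counted, was below 15000 bp. This rule took 227 of the 346 listed domains, and the other 119 are called longer domains here. Length chose the members, so all differences in length are descriptions.

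The study measured the incorporation of new histone H3 in germinated conidia by FLAG chromatin immunoprecipitation and sequencing, with 10 libraries in 5 groups of 2. Deletion strains lacked dim-2 (marker hph), dim-5 (bar), hda-1 (hph) or hpo (hph), and the fifth group was the wild type. All 5 groups carried Pvvd::hH3-3xFLAG::his-3+, a tagged histone H3 driven by the promoter of the light-induced gene vvd at his-3. The mating type was mat a for the wild type, dim-2 and hda-1 strains, and the label gives it as "mat ?" for the dim-5 and hpo strains. Growth in the dark lasted 18 h at 32 °C in every group. Hydroxyurea (100 mM, 3 h), which stops DNA synthesis, came before 2 min of light at 465 nm and fixation in 0.5% formaldehyde. No genotype was compared and the depth is unknown, because only positions were read from the files. The data used are positions in 1 list of wild-type domains and 4 lists of 9729 genes sorted by wild-type expression. The lists hold the lowest, 25-50%, 50-75% and highest part of the genes as their names were read, with about 25.0% of the genes each. No replicate stands behind a single domain or gene, and no test was run. Shares carry Wilson 95% intervals and medians carry order-statistic 95% intervals, which treat domains or genes as independent and cover counting error only.

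In Neurospora, constitutive heterochromatin forms on A+T-rich relics of transposons that were mutated by repeat-induced point mutation (RIP). The methyltransferase DIM-5 places H3K9me3 there, heterochromatin protein 1 (the product of hpo) binds the mark, and DIM-2 methylates the DNA. The HCHC complex, with the deacetylase HDA-1 and the chromodomain protein CDP-2, acts on the same regions. Heterochromatin of this kind occupies centromeres and chromosome ends and is also scattered along the arms between genes.

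Short domains made up 65.6% of all domains but held 1284 kb, or 19.6%, of the 6556 kb of domain sequence. Their median length was 4.2 kb (95% interval 3.6 to 4.8, interquartile range 1.8 to 9.3 kb), against 26.4 kb (24.3 to 31.2) for the longer domains. Within the short class, 81 were under 3 kb and held 112.8 kb in all. Another 87 were 3 to under 9 kb long and held 450 kb. The last 59, of 9 to under 15 kb, held 721.2 kb. The domains under 3 kb thus carried the least of the sequence of the class. The list has a fixed grain: 221 of the 227 short domains (97.4%) had a length that is a multiple of 300 bp, and 116 of the 119 longer ones (97.5%). The smallest members were 6 domains of a single 300 bp step, followed by 12 of 600 bp and 13 of 900 bp, to the nearest step.

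The limit of 15 kb did not fall at a break in the length range. Just inside it lay 3 domains of 14.7 kb, on II (1720201 to 1734900), III (133201 to 147900) and V (1752901 to 1767600). Just outside it lay domains of 15 kb on II (4344601 to 4359600), IV (2608201 to 2623200) and V (5699101 to 5714100). Lengths therefore run on across the limit with no break of more than 1 step.

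**Figure D1:**
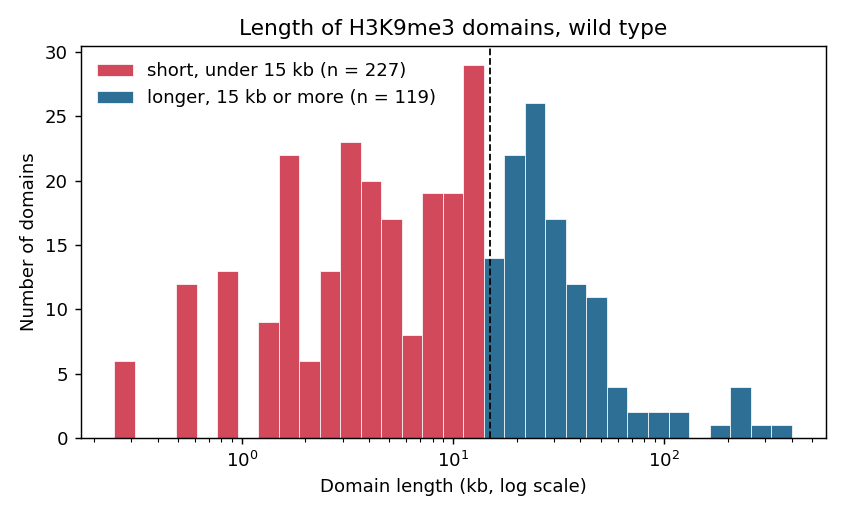
Length of every wild-type H3K9me3 domain (kb, log scale, x axis) against the number of domains (y axis), with the 227 short domains in red, the 119 longer ones in blue and the 15 kb limit as a dashed line. The steps at the left are the 300 bp grain of the list, and the 2 classes meet without a gap at the limit.

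Every linkage group carried short domains, at between 4.36 and 7.76 per Mb. Linkage group I had 46, V had 42, IV and VII had 33 each, VI had 26, II had 24 and III had 23. Linkage group VII was the densest at 7.76 per Mb, followed by V with 6.53 and VI with 6.16 per Mb. The sparsest were III with 4.36 and I with 4.69 per Mb. Short domains were the majority in all 7 linkage groups, between 60.5% of the domains of III and 72.4% of those of V. They held the largest part of domain sequence on V (26.3%) and VII (24.7%), and the smallest on IV (15.3%) and I (16.1%).

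Short domains were spaced somewhat farther from their nearest neighbour than longer ones, by an amount that their intervals do not separate. The median gap to the nearest domain of any length was 33.0 kb for short domains (26.4 to 40.8, interquartile range 8.1 to 61.2 kb) and 19.5 kb for longer domains (12.6 to 33.6, interquartile range 4.5 to 55.05 kb). The difference of medians was 13.5 kb, with an interval of -2.07 to 23.9 kb. The interval was clear of 0 in 2 of 15 alternatives, without linkage group IV (2.62 to 28.3 kb) and with length counted 1 bp shorter (0.154 to 25.1 kb). The difference was smallest with the limit at 10 kb, at 2.25 kb (-11.1 to 16.6 kb). The short median was the higher in 5 of 7 linkage groups, equal on IV and lower on III. It ranged from 12.9 kb on IV to 50.85 kb on II.

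A neighbour within 5 kb was found for 43 of the 227 short domains (18.9%, 14.4 to 24.5) and 31 of the 119 longer domains (26.1%, 19.0 to 34.6). Within 100 kb it was 197 short domains (86.8%) and 107 longer ones (89.9%). No gap was shorter than 1200 bp for any of the 339 neighbouring pairs. The nearest neighbour was itself a short domain for 143 short domains (63.0%, 56.5 to 69.0) and for 76 longer ones (63.9%, 54.9 to 71.9). Since 65.6% of all domains are short, neither class was next to short domains more often than their number in the list gives.

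Gaps were also counted in genes. Between 2 short domains the median gap was 63.0 kb with 18 genes (149 pairs). Between a short and a longer domain it was 52.2 kb with 13 genes (147 pairs), and between 2 longer domains 57.9 kb with 18 genes (43 pairs). No gene lay wholly between the domains in 16 of the 149 short pairs (10.7%, 6.72 to 16.7), 15 of the 147 mixed pairs (10.2%) and 7 of the 43 longer pairs (16.3%, 8.12 to 30.0). In all, 39 of the 227 short domains had such a gene-free link to a neighbour, so these are not independent of it.

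**Figure D2:**
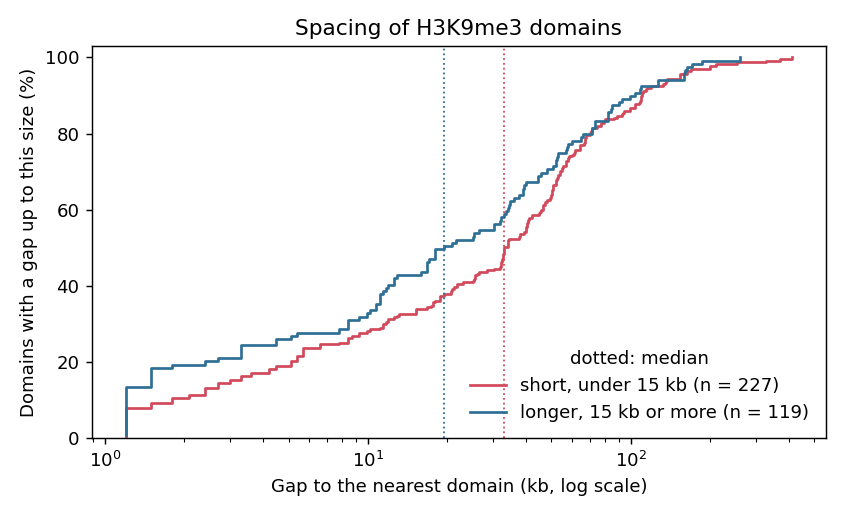
Share of domains (%, y axis) whose gap to the nearest other domain is at most the size on the x axis (kb, log scale), for 227 short domains in red and 119 longer domains in blue, with dotted lines at the medians of 33.0 and 19.5 kb. The short domains have the larger median gap, and 86.8% of them and 89.9% of the longer ones have a neighbour within 100 kb.

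Some stretches held short domains only. The longest run was 11 short domains in a row on V, from 1222801 to 2507100, with 64.2 kb of domain sequence and 323 genes. Its domains were 0.6 to 14.7 kb long with a median gap of 110.25 kb. Beside it at the left stood a longer domain of 94.8 kb and at the right one of 29.7 kb. The next run held 9 domains of 0.6 to 8.4 kb on I, 6469801 to 7712700, with 348 genes. The third held 8 domains of 0.9 to 14.4 kb on VII, 2492101 to 3375600, with 245 genes. Another run of 8 lay on II, 390601 to 1077300, with 178 genes. Runs of that size were few, and 24 short domains had a longer domain, or the end of the linkage group, on both sides.

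The most isolated members were followed to their flanking genes. A 3.3 kb domain on I (3062101 to 3065400) stood 411.3 kb from any other, between NCU02648 of the lowest list and rpn-5, a proteasome subunit gene of the highest list. The second, of 4.8 kb on I (6998101 to 7002900), was 370.5 kb from its nearest neighbour, with NCU00838 of the 50-75% list and gh61-7 of the lowest list as flanking genes. The third, of 2.4 kb on I (1944901 to 1947300), stood 326.1 kb away, between NCU01939 and NCU01938, both of the highest list. On II, one of the 14.7 kb domains named above was 254.4 kb from its nearest neighbour. On V, a 2.7 kb domain (1989901 to 1992600) was 211.8 kb away and reached 123 bp into gh63-1, a glycoside hydrolase gene of the 50-75% list. Both of its flanking genes, NCU03654 and NCU03658, were in the highest list. Of all 227 members, 30 stood more than 100 kb from any domain.

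The distance to the ends of the linkage groups had wide intervals in both classes. The median distance was 1268 kb for short domains (1001 to 1437) and 1092 kb for longer ones (872 to 1318), a difference of 176.1 kb with an interval of -174 to 454 kb. With domains joined where no gene lay between them, the difference was 345.3 kb (36.7 to 701.9), and this was the 1 of 15 alternatives whose interval was clear of 0. The short median was higher in 4 of 7 linkage groups and lower in 3. Within 100 kb of an end lay 22 short domains (9.69%, 6.49 to 14.2) and 9 longer ones (7.56%, 4.03 to 13.7). Within 200 kb lay 38 short domains (16.7%) and 16 longer ones (13.4%). Ends were taken as the outermost listed gene or domain, so the true ends may lie farther out.

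Of the 14 outermost domains, 9 were short, between 1.8 and 9.3 kb long. Since 65.6% of all domains are short, this does not set the ends apart. Domains that begin at position 1 may be cut short there, which was not tested. The short outermost domains included both of II (8.7 and 8.4 kb) and both of III (9.3 and 2.1 kb). The rest were those at the low-coordinate end of I, IV, VI and VII (1.8 kb each) and that at the high-coordinate end of V (2.1 kb). On I the end domain, 1 to 1800, reached 650 bp into NCU10129 of the 50-75% list. On II the domain at 4470001 to 4478400 reached 618 bp into set-6 of the 50-75% list. On III the domain at 5271901 to 5274000 held NCU16718 of the lowest list completely.

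The longest domain of each linkage group measured between 187.7 kb on VI and 349.2 kb on VII. Within 100 kb of it lay 16 short domains (7.05%, 4.38 to 11.1), of which 6 were on VII and 3 on VI, and 14 of the 112 remaining longer domains (12.5%, 7.59 to 19.9). Within 200 kb the numbers were 27 short domains (11.9%) and again 14 longer ones (12.5%). The closest member was a domain of 300 bp on VI (2949601 to 2949900), 1.2 kb from that linkage group's longest domain. Its flanking genes, 310.7 kb apart, were NCU03846, which lies inside that longest domain, and the polyketide synthase gene pks-1. Both are in the 50-75% list.

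The space between the flanking genes holds the domain itself, so its width and the part filled follow in part from the length rule and are descriptions. Flanking genes were taken as the nearest listed genes wholly outside the domain, 1 on each side. Genes that a border cuts were skipped here and are described further on. The space can therefore hold such genes, and it can also hold other domains, both of which lower the part filled. Both flanking genes existed for 216 short domains, and 11 had a gene on 1 side alone. The distance between the flanking genes had a median of 9.50 kb for short domains (7.74 to 11.3) and 33.7 kb for longer domains (31.6 to 36.2). The short domain filled a median of 56.4% of that interval (47.8 to 62.2), and the longer domain 88.8% (87.2 to 91.6).

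Filling rose with length within the short class. Domains under 3 kb filled a median of 27.9%, those of 3 to under 9 kb 61.7% and those of 9 to under 15 kb 78.5%. More than 50% of the interval was filled by 121 of the 216 short domains, and over 90% by 15 of them.

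**Figure D3:**
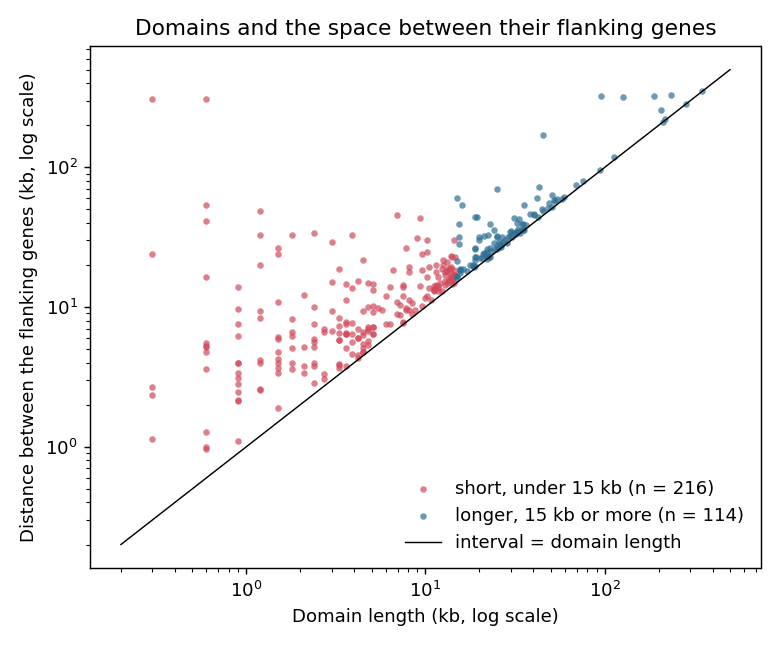
Distance between the 2 flanking genes (kb, log scale, y axis) against domain length (kb, log scale, x axis), for 216 short domains in red and 114 longer domains in blue, with a line where both are equal. Points near the line fill their interval, and short domains lie farther above it than longer ones (medians of 56.4% and 88.8% filled).

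The distance from a domain border to its flanking gene differed little. It is not free space alone, since it includes the rest of a gene that the border cuts and any other domain on the way. The median gap was 1417 bp for short domains (1221 to 1631, 443 gaps) and 1462 bp for longer ones (1192 to 1780, 233 gaps). The difference of -45 bp has an interval of -419 to 300 bp, and its sign changes with the processing. A flanking gene within 300 bp, or 1 grid step, of the border was found at 96 of 443 short sides (21.7%, 18.1 to 25.7) and 41 of 233 longer sides (17.6%, 13.2 to 23.0). Within 5 kb it was 87.1% and 83.7%. Both flanking genes lay within 1 kb at 36 short domains. Across all adjacent listed genes the median gap between them was 628 bp, with overlapping genes counted as 0. That gap runs from gene to gene and skips none, so it is not a like measure.

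Wider gaps between genes held a domain of some length more often. Which class a gap can hold depends in part on the 15 kb rule, since a gap narrower than that cannot hold a whole longer domain, so the split by class is a description. Of the 318 gaps of 5 to under 10 kb between adjacent listed genes, 56 held short domains only (17.6%, 13.8 to 22.2), 4 held a longer domain and 258 held none. Of the 114 gaps of 10 to under 20 kb, 59 held short domains only (51.8%, 42.7 to 60.7), 22 a longer domain and 33 none. All 99 gaps of 20 kb or more held a domain, 6 of them short ones only and 93 a longer one. For gaps of that width with no domain, 0 of 99 allows a share of up to 3.74% (Wilson). Below 5 kb, short domains were found in 48 of 1348 gaps of 2 to under 5 kb (3.56%), 19 of 1729 gaps of 1 to under 2 kb (1.10%) and 11 of 4968 gaps under 1 kb (0.221%). A gap counts here when a domain reaches at least 1 bp into it, so a domain that cuts a gene can count in 2 gaps.

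Genes that the lists leave out can stand in these gaps. Over all widths, 14 of 198 gaps with short domains only had a tRNA gene between the same neighbours in the NC12 gene table (7.07%, 4.26 to 11.5), against 337 of 8244 domain-free gaps (4.09%, 3.68 to 4.54). The gaps with short domains are the wider ones, and the direction differed between widths. At 2 to under 5 kb the shares were 5 of 48 gaps with short domains only (10.4%, 4.53 to 22.2) and 93 of 1297 domain-free gaps (7.17%, 5.89 to 8.70). At 5 to under 10 kb they were 4 of 55 (7.27%, 2.86 to 17.3) and 27 of 258 (10.5%, 7.29 to 14.8). At 10 to under 20 kb they were 2 of 59 (3.39%, 0.935 to 11.5) and 8 of 33 (24.2%, 12.8 to 41.0). Whether the tRNA gene lies inside the domain was not determined. This count of tRNA genes was chosen after the values were seen. Noncoding RNA genes stood between the flanking genes of 12 of 213 short domains (5.63%, 3.25 to 9.59) and 2 of 112 longer ones (1.79%, 0.491 to 6.28). Ribosomal RNA genes stood at 4 (1.88%) and 1 (0.893%), and tRNA pseudogenes at 0 and 5 (4.46%). Between adjacent listed genes the 3 shares were 1.75%, 0.751% and 0.123%. These counts were not split by gap width.

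**Figure D4:**
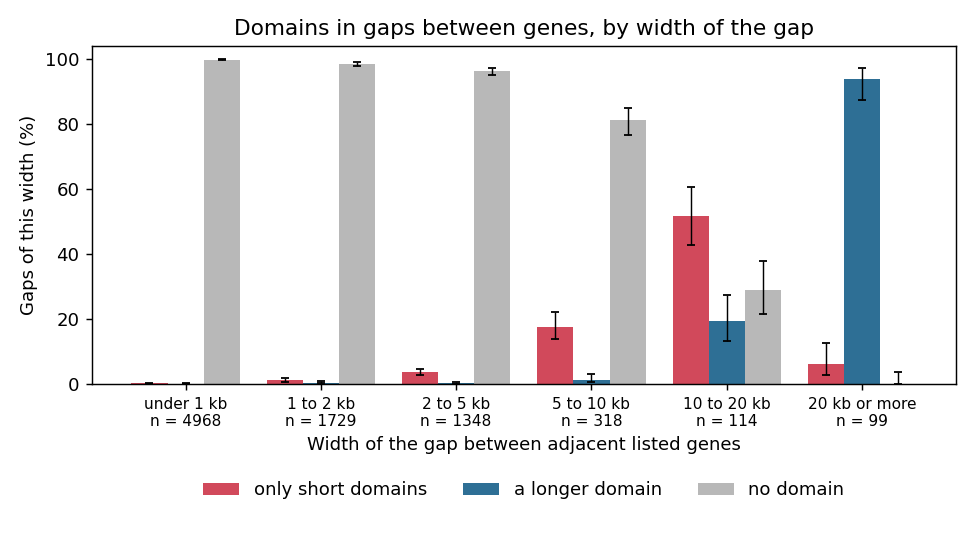
Gaps between adjacent listed genes, grouped by width (x axis, with the number of gaps), and the share (%, y axis) that held only short domains in red, a longer domain in blue or no domain in grey, with Wilson 95% intervals. Short domains alone are in 51.8% of the gaps of 10 to 20 kb, and all 99 gaps of 20 kb or more hold a domain.

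Genes beside short domains were in the lowest expression list more often than all listed genes, with an interval above 25.0%. That comparison does not match gap width. Beside gaps of 2 to under 20 kb, the lowest-list share was 30.7% with short domains only (99 of 323 genes, 25.9 to 35.9). It was 34.2% beside domain-free gaps of that range (947 of 2772, 32.4 to 35.9), which were narrower within it (median 3.04 against 7.54 kb). Of 419 distinct flanking genes of short domains, 131 were in the lowest list (31.3%, interval 27 to 35.9). The 25-50% list supplied 102 (24.3%, 20.5 to 28.7), the 50-75% list 93 and the highest list 93 (22.2%, 18.5 to 26.4 each). Each list holds 25.0% of all genes. Of 225 flanking genes of longer domains, 61 belonged to the lowest list (27.1%, 21.7 to 33.3). Another 53 came from the 25-50% list, 46 from the 50-75% list and 65 from the highest list (28.9%, 23.4 to 35.1). Short minus longer was 4.15 percentage points for the lowest list (-3.33 to 11.2) and -6.69 points for the highest list (-14.0 to 0.263), so neither interval is clear of 0. The highest-list interval was clear of 0 in 7 of 16 alternatives (with the limit at 20 kb, -16.8 to -1.21 points), and the lowest-list interval in 0 of 16. Some 21 genes flanked a domain of both kinds and are counted in both.

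The lowest-list share of short-domain flanks was above that of all genes of the same linkage group in 7 of 7 linkage groups. On IV it was 36.8% against 26.3% of all genes there, on II 34.9% against 23.7%, and on VII 36.7% against 32.2%. On I it was 23.3% against 20.1%, and on III 27.3% against 26% of all genes. The margins on I and III are small beside the number of genes (90 and 44 flanking genes). The highest-list share was below that of all genes in 6 of 7 linkage groups and above it on VI. On V, counted as below, the shares were nearly equal (26.92% and 26.96%). Between the domain classes, the lowest-list share was higher for short domains in 6 of 7 linkage groups, with III as the exception (27.3% and 43.3%).

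List shares also varied with position along the linkage group. For flanking genes of short domains the lowest-list share was 39.0% within 200 kb of an end (23 of 59 genes, 27.6 to 51.7), 44.0% at 200 to 1000 kb (48 of 109, 35.1 to 53.4) and 23.9% farther in (60 of 251, 19.1 to 29.5). For longer domains it was 48.0% (12 of 25), 39.2% (29 of 74) and 15.9% (20 of 126, 10.5 to 23.2). All listed genes of the same zones gave 36.8%, 36.7% and 18.9% (18.0 to 19.9). More than 1000 kb from an end, the highest list supplied 24.3% of short-domain flanks (61 of 251, 19.4 to 30.0), 35.7% of longer-domain flanks (45 of 126, 27.9 to 44.4) and 28.1% of all genes there. Nearer to the ends the highest-list shares of the 2 classes were within 2 points of each other.

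**Figure D5:**
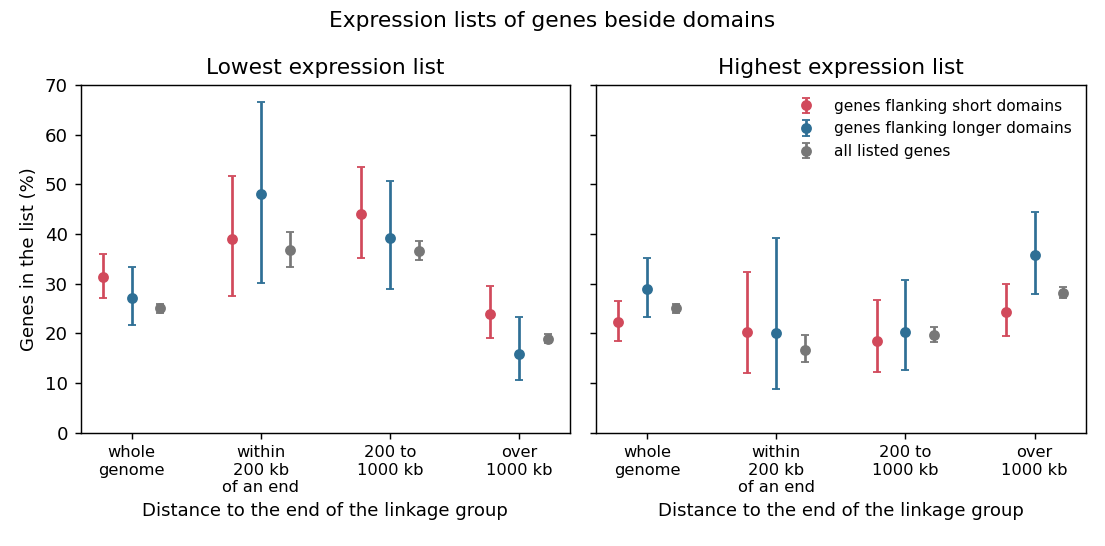
Share of genes (%, y axis) in the lowest (left) and highest (right) expression list, for the whole genome and for 3 ranges of distance to the end of the linkage group (x axis), with Wilson 95% intervals. Genes flanking short domains are red, genes flanking longer domains blue and all listed genes grey, and all 3 lowest-list shares drop beyond 1000 kb, to 23.9%, 15.9% and 18.9%.

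Genes beside gaps of like width with no domain were set beside these. At 5 to under 10 kb, genes beside gaps with short domains only were in the lowest list at 33.3% (37 of 111, 25.3 to 42.5), and genes beside domain-free gaps at 32.2% (161 of 500, 28.3 to 36.4). At 10 to under 20 kb the shares were 33.1% (39 of 118, 25.2 to 42.0) and 29.2% (19 of 65, 19.6 to 41.2). At 2 to under 5 kb they were 25.0% (24 of 96, 17.4 to 34.5) and 35.2% (825 of 2345, 33.3 to 37.1). Beside domain-free gaps the lowest-list share was 21.0% at under 1 kb and 33.7% at 1 to under 2 kb, so it moves with gap width. The part of gap width in the lowest-list share of short-domain flanks was not tested.

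The lowest-list share was also split by length, spacing and order from the border. The intervals overlap within the length split and within the spacing split. Flanks of domains under 3 kb were in the lowest list at 25.7% (38 of 148, 19.3 to 33.3), those of domains of 3 to under 9 kb at 36.9% (62 of 168, 30.0 to 44.4) and those of 9 to under 15 kb at 31.6% (37 of 117, 23.9 to 40.5). By spacing, the share was 31.7% for members under 10 kb from another domain (32 of 101), 29.6% at 10 to 50 kb (47 of 159) and 32.7% beyond 50 kb (52 of 159). Counting outward from the border of short domains, the lowest-list share was 31.3% for the first gene, 28.9% for the second, 30.0% for the third and 25.1% for the fourth. From the fourth to the 10th gene it lay between 22.6% and 29.4%, which is in part above the second gene. The interval of the 10th gene (18.8 to 26.9) lies below that of the first (27.0 to 35.9). Those of the genes between overlap that of the first.

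Both flanking genes were in the lowest list at 29 of 216 short domains (13.4%, 9.51 to 18.6) and 17 of 114 longer domains (14.9%, 9.52 to 22.6), against 10.8% of all adjacent gene pairs. Both were in the highest list at 14 short domains (6.48%) and 8 longer ones (7.02%), against 7.93% of adjacent pairs. A short domain stood between a lowest-list and a highest-list gene at 21 places (9.72%, 6.45 to 14.4), and a longer domain at 10 (8.77%), against 8.99% of adjacent pairs. The 2 flanks shared a list at 33.8% of short domains (27.8 to 40.3) and 30.7% of longer ones, against 32.9% of adjacent pairs. Flanking genes skip any gene that the domain overlaps, while adjacent pairs skip none, so these are not like measures.

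Flanking genes had ordinary lengths. Their median length was 2109 bp beside short domains (2001 to 2283) and 2061 bp beside longer domains (1887 to 2195), against 2129 bp over all listed genes. Within the lowest list the medians were 1251 bp, 1154 bp and 1223 bp, and within the highest list 2819 bp, 2579 bp and 2717 bp, in the same order. The median gap from a short domain to a flanking gene was 2070.5 bp (1561 to 2549) for lowest-list genes. It was 1141 bp for the 25-50% list, 1087 bp for the 50-75% list and 1247 bp (985 to 1718) for the highest list. The interval of the lowest list lies above that of the 50-75% list (626 to 1559) by far less than 1 grid step, and overlaps those of the other lists. At longer domains the medians were 1554 bp for the lowest list and 1827 bp for the 25-50% list. They were 804.5 bp for the 50-75% list and 1382 bp for the highest list there.

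Many short domains touched a gene, usually by less than 300 bp. At least 1 bp was shared with a listed gene by 105 of 227 short domains (46.3%, 39.9 to 52.8) and 68 of 119 longer domains (57.1%, 48.2 to 65.7). The short share was the lower in all 7 linkage groups, and the difference was -10.9 points (-21.5 to 0.193). Its interval was clear of 0 in 5 of 15 alternatives (with the limit at 10 kb, -24.0 to -3.34 points). Per border the difference was smaller: 113 of 454 short borders (24.9%, 21.1 to 29.1) and 69 of 238 longer borders (29.0%, 23.6 to 35.1) lay inside a gene. A complete gene was held by 7 short domains (3.08%, 1.50 to 6.23) and 19 longer domains (16.0%, 10.5 to 23.6), where greater length alone gives more room. Gene sequence made up 3.94% of short domain sequence and 1.19% of longer domain sequence. Within the short class it was 12.7% for domains under 3 kb, 4.81% at 3 to under 9 kb and 2.03% at 9 to under 15 kb. Domain length is the denominator of these shares, so they follow in part from the length rule and are descriptions. A single domain of 6.6 kb on VI supplied 5971 bp of the 50.6 kb of gene sequence in short domains.

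The 119 genes that short domains reached came from all 4 lists. The lowest list gave 35 (29.4%, 22 to 38.1), the 25-50% list 28 (23.5%), the 50-75% list 26 (21.8%) and the highest list 30 (25.2%, 18.3 to 33.7). Any domain reached 2.17% of all genes. The median overlap was 232 bp, which is less than 1 grid step, and 72 of the 121 overlaps were under 300 bp, so most cuts are within the resolution of the list. The median share of a gene that was covered was 22.2% for the lowest list, 10.8% for the 25-50% list, 5.75% for the 50-75% list and 8.06% for the highest. Of 18 genes covered by 50% or more, 11 belonged to the lowest list, 5 to the 25-50% list, 2 to the 50-75% list and 0 to the highest. Lowest-list genes are shorter, with a median of 1223 bp against 2717 bp for the highest list. The same overlap is therefore a larger share of them, and they fit more easily inside a domain. The part of gene length in these values was not tested.

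Short domains covered 7 genes completely, and the same limit of gene length holds for them. Of these, 6 were in the lowest list: NCU08083 on I (208395 to 209343), NCU16718 (5272185 to 5273718) and NCU00354 (3554902 to 3555368) on III, NCU17054 (6435237 to 6435860) and NCU07228 (6191093 to 6191712) on V and NCU06019 on VII (2065099 to 2066453). The seventh was NCU09969 of the 25-50% list on VI (314113 to 320071), 5959 bp long, inside a domain of 6.6 kb. That domain and a 1.8 kb domain 2.7 kb to its left both cut NCU09968 of the highest list (309546 to 315476). The smaller domain, 309601 to 311400, lay wholly within NCU09968 and was the only short domain of the 227 inside a single gene.

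Genes of the chromatin machinery were among those cut. Short domains sat at both ends of dim-9, which encodes a subunit of the DIM-5 complex and was in the 50-75% list (II, 2791337 to 2795556). A domain of 900 bp covered 464 bp at its low-coordinate end, and another of 600 bp covered 156 bp at its high-coordinate end. A 600 bp domain on I, 7373401 to 7374000, covered 118 bp of cdp-2, the chromodomain gene of the HCHC complex, also of the 50-75% list. A 14.4 kb domain on VII (2492101 to 2506500) covered 235 bp of the histone gene hH2B of the highest list. The same domain covered 2870 bp (92.0%) of NCU02434, which overlaps hH2B. All of these hH2B, cdp-2 and dim-9 overlaps except 1 are under 300 bp.

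Other named genes cut by short domains were 9 in number, each by 13 to 618 bp. In the highest list were cot-1, a kinase gene of hyphal growth on IV (238 bp), acw-9 on III (368 bp), tah-4 on IV (71 bp) and tca-17 on I (67 bp). The 50-75% list gave set-6 on II (618 bp), gh63-1 on V (123 bp) and cia84, a gene of complex I assembly on V (13 bp). The 25-50% list gave nst-3, a sirtuin-like gene on I (205 bp), and gpr-2, a G-protein-coupled receptor gene on V (151 bp).

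Of 53 genes in 7 lists of interest, 48 could be matched by symbol, and 4 of these stood at a short domain. They were dim-9 and cdp-2 of 9 matched heterochromatin genes, hH2B of 7 histone genes and con-6 of 13 light and clock genes. Over all listed genes 5.41% flanked or overlapped a short domain, and 4 genes are too few to set the lists apart from that. The conidiation gene con-6 (25-50% list) flanked a 7.8 kb domain on III (5207101 to 5214900) at 1173 bp, with stk-52 on the other side at 861 bp. None of 6 RNA silencing genes, 8 housekeeping genes, 4 nutrient-regulated genes or the 1 matched PRC2 gene, set-7, flanked or overlapped a short domain. The genes deleted in the study lay at some distance: hpo 33.7 kb from the nearest short domain, hda-1 53.0 kb, dim-2 56.5 kb and dim-5 480.9 kb. The vvd gene lay 111.6 kb away and his-3, the site of the tagged histone, 150.7 kb.

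The 6 members of 300 bp were scattered over I (980401 to 980700 and 3586201 to 3586500), IV (440401 to 440700 and 5955001 to 5955300), V (771001 to 771300) and VI. The first overlapped NCU02176 of the 25-50% list by 176 bp. The second stood 193 bp from hsp30, a heat shock gene of the 25-50% list, and 5.7 kb from the nearest domain. The pair on IV lay 2.4 and 1.5 kb from other domains, and the domain on V 7.8 kb from its neighbour. With the one on VI beside the longest domain, 5 of these 6 domains lay under 10 kb from another domain, and the first lay 55.5 kb away. Of all short domains, 64 of 227 (28.2%) lay within 10 kb of another.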

How the data were processed

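The files analysed hold positions: 346 wild-type H3K9me3 domains and 9729 genes in 4 expression lists. Per the submitters' processing notes, SICER, Bowtie2, deepTools and HOMER were used. No version, setting or genome build is given in the sources used here, and how expression was measured for the lists is not stated. Depth is unknown. The 10 empty rows of the deposited domain list were skipped.

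Positions were set to count from 1, as in the files' build, with supercontigs taken as linkage groups. Names came from the RefSeq NC12 table: 9490 genes had the same position, 238 on VI (1851685 to 2769626) the mirrored one, and 1 stayed unnamed. Overlap meant at least 1 bp.

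Members, gene lists and alternatives were chosen with earlier results of these data known. The rule for named items took domains at the limit, the shortest, the 5 most isolated, nearest to ends and richest in gene sequence, the 3 longest runs, and those at genes with a symbol or in the lists; not all are printed. Other items were named after their values were seen. Scripts were tested on simulated data (Python 3.11.15, NumPy 2.4.6, pandas 2.3.3, SciPy 1.17.1).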

Additional observations from a re-analysis of the deposited data

How the results depend on the processing

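The 8 results, mostly differences between short and longer domains, were recomputed under 15 or 16 alternatives each. Of the 124 values, 118 kept their direction and stayed inside the main interval (for the count, within 1.5 times). Intervals that include 0 in the main analysis were clear of 0 in 2 of 15 alternatives for the nearest gap, 1 of 15 for the end distance, 5 of 15 for gene overlap and 7 of 16 for the highest-list share. The alternatives changed the limit (10 or 20 kb), the length by 1 bp, the domains or linkage groups left out, joined domains with no gene between, or let a gene across the border count as flanking. The difference in gap to the flanking gene (-45 bp) changed sign to 28 bp without the inverted segment of VI, 19 bp without the longest domain of each linkage group, 17.5 bp without domains within 100 kb of an end, 6 bp without linkage group IV and 33 bp without VII; the cause was not tested. The number of short domains was 146 without domains under 3 kb, by construction. The difference in nearest gap stayed between 2.25 and 16.8 kb, in end distance between 62.85 and 345.3 kb, in flanking gene length between 33 and 97 bp, in gene overlap between -13.9 and -8.21 points, in the lowest-list share between 1.08 and 7.52 points and in the highest-list share between -8.74 and -4.03 points. No paired analysis was possible because no value per library was analysed here, and no replicate could be left out.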
